A study of Mus musculus with 14 samples.

Results

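The genes described here are those of eIF5A hypusination: *Dhps*, *Dohh*, *Eif5a* and *Eif5a2*. They were chosen by symbol, and all 4 were among the 19525 genes of the count table in each of 14 libraries. The libraries came from cytosolic RNA of 4T1 tumor spheroids, 3-dimensional aggregates of a mouse mammary cancer cell line, kept for 5 days in lung-like medium, which mimics the nutrients of lung interstitial fluid. Cells with a non-targeting hairpin (shSCR) were the control, and received 700 µM aspartate (ASP shSCR, n = 4) or none (NoASP shSCR, n = 3). A hairpin silenced *Grin2d* in ASP shGRIN2D (n = 3) and *Dhps* in ASP shDHPS (n = 4), always in the presence of aspartate, so neither knockdown was measured without it. All lines were selected pools of lentivirally transduced cells, and all spheroids were washed with cycloheximide, which stalls ribosomes on mRNA, before lysis. Libraries of a group were separate spheroid pellets, and the labels name no separate lines or hairpins per target. Differences between lines therefore cannot be told apart from loss of the target.

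Hypusine is an unusual amino acid that is made in a single lysine of eIF5A, a translation factor that helps ribosomes through stretches where peptide bonds form slowly and assists termination. Deoxyhypusine synthase (*Dhps*) transfers an aminobutyl group from the polyamine spermidine to this lysine, and deoxyhypusine hydroxylase (*Dohh*) then hydroxylates it. *Eif5a* encodes the widely expressed form of the factor, and *Eif5a2* a paralog with restricted expression in normal tissue that is often raised in cancer. The modification is on the protein, so the transcript levels below do not measure hypusine.

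The hypusinated lysine lies at the same codon in both paralogs. The stretch around it is shown because it is the substrate of both enzymes and shows how far the 2 transcripts differ where the proteins do not. Codons 41 to 59 follow, from the GENCODE M21 transcripts, 5′ to 3′, with codon 50 for the modified lysine in capitals.
Eif5a: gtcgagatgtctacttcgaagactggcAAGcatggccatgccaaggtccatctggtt
Eif5a2: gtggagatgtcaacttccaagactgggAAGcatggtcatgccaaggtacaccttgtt
These 57 bases differed at 8 positions, yet all 19 encoded residues were identical. Over the whole coding sequences, 334 of 459 aligned bases (72.8%) and 127 of 153 aligned residues (83.0%) were identical. No stretch of 31 bases was common to the 2 transcripts, and the longest identical run in the aligned coding sequences was 14 bases.

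Total counts were 12731123 to 23231378 per library. Values are counts per 1000000 (CPM) scaled by trimmed mean of M-values (TMM) factors, and differences are log2 fold changes with standard errors (SE) and adjusted p from edgeR's quasi-likelihood test over all genes. A gene is called at an adjusted p under 0.05. The epithelial markers *Epcam*, *Cdh1*, *Krt7*, *Krt8*, *Krt18* and *Krt19* were all present, whereas the markers of white blood cells (3 of 4 in the table) and of endothelial cells (2 of 3) each summed to at most 1.08 CPM in any library. Of 4 fibroblast markers, 2 were in the table, with group means of 26.6 to 33.1 CPM for *Pdgfra* and values at or near 0 for *Dcn*. On the first principal component of log2 CPM, which held 32.3% of the variance, both shSCR libraries numbered 2 stood at one end (25.8 with and 19.7 without aspartate, against -6.28 to 8.66 in the other 5 shSCR libraries) and the shDHPS libraries at the other (-27.6 to -6.33). Some of the results that use these 2 libraries are also given without them.

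The 4 transcripts were present at very unequal levels. Without regard to length, the mean CPM of *Eif5a* ranked 52 of 19525 genes, that of *Dohh* 4588, that of *Dhps* 8009 and that of *Eif5a2* 8383. Per 1000 bases of coding sequence, mean levels in ASP shSCR were 2533 CPM for *Eif5a*, 48.0 for *Dohh*, 27.9 for *Eif5a2* and 17.5 for *Dhps*. On this scale *Eif5a* was 90.8 times as abundant as *Eif5a2*. The ratio became 319 per 1000 bases of the principal transcript, because that of *Eif5a2* is 5027 bases long and that of *Eif5a* 1437. *Dohh* exceeded *Dhps* by 2.74 times per coding length and 2.07 times per transcript length.

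**Figure D1:**
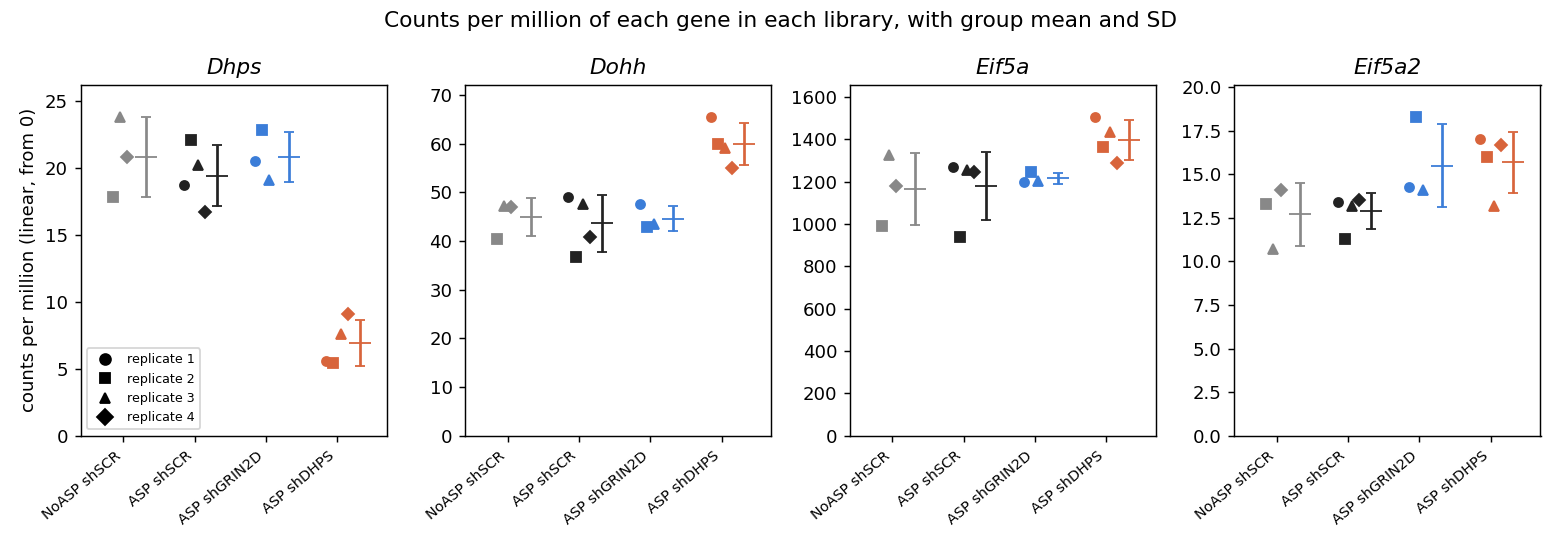
CPM (linear axis from 0) of *Dhps*, *Dohh*, *Eif5a* and *Eif5a2* in each of the 14 libraries, with symbols for replicate numbers and bars for group mean and SD. *Dhps* was 5.46 to 9.08 in ASP shDHPS and 16.7 to 23.8 elsewhere, while *Dohh* was 55.0 to 65.5 in ASP shDHPS and 36.8 to 49.1 elsewhere.

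*Dhps* (ENSMUSG00000060038, chromosome 8) is the target of one of the hairpins. Its level in ASP shSCR was 18.7, 22.1, 20.2 and 16.7 CPM in replicates 1 to 4. In ASP shDHPS it was 5.57, 5.46, 7.62 and 9.08 CPM, from 82 to 170 counts. All 4 knockdown libraries lay below every other library. *Dhps* fell by 1.48 on the log2 scale (SE 0.15, adjusted p = 8.31e-06, edgeR), to 0.358-fold of ASP shSCR (95% interval 0.288 to 0.445), in a comparison in which 824 of 19525 genes were called, 4.22%. The coefficient of variation was 25.1% among the knockdown libraries and 9.02% to 14.5% in the other groups. *Wdr83*, which overlaps the end of *Dhps* by 128 bases on the opposite strand, had 17.9 CPM in ASP shDHPS and 16.8 in ASP shSCR (log2 0.09, SE 0.11, adjusted p = 0.700). The library kit marked strand. *Wdr83os*, the next gene on the *Dhps* strand, differed by 0.25 (SE 0.10, adjusted p = 0.157).

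*Dohh* (ENSMUSG00000078440, chromosome 10), which completes hypusine, was higher in the spheroids in which *Dhps* was silenced. Its levels in ASP shSCR were 49.1, 36.8, 47.6 and 40.8 CPM. In ASP shDHPS they were 65.5, 59.9, 59.0 and 55.0 CPM, and the lowest of these was above the highest of any other group. *Dohh* rose by 0.46 on the log2 scale (SE 0.10, 95% interval 0.25 to 0.66, adjusted p = 0.0108, edgeR), a fold change of 1.37 (1.19 to 1.58). By unadjusted p it ranked 295 of all genes, and 97.8% of the 10224 genes with a mean CPM of 5 or more had a lower fold change. Leaving out both shSCR libraries numbered 2 gave 0.39 (adjusted p = 0.0251), and the gene stayed called under all 18 alternatives, with 0.38 to 0.52 and adjusted p of 0.000281 to 0.0439.

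The same rise was measured against the other knockdown. ASP shGRIN2D libraries held 47.6, 42.9 and 43.4 CPM of *Dohh*, and ASP shDHPS exceeded them by 0.42 (SE 0.11, adjusted p = 0.0359), where 2.82% of genes were called. This call was lost (adjusted p 0.0692 to 0.155) when any of ASP shGRIN2D replicates 1 to 3 or of ASP shDHPS replicates 1 to 3 was left out, with differences of 0.38 to 0.47. Against NoASP shSCR (40.4, 47.2 and 47.0 CPM), which differs in both hairpin and aspartate, the difference was 0.42 (SE 0.11, adjusted p = 0.0507), where 1.81% of genes were called. Same-numbered libraries of these 2 groups deviated together, and with the replicate number as a block it was 0.37 (adjusted p = 0.0187), with 1036 genes called in place of 354. The 3 comparisons share the ASP shDHPS libraries and are not independent.

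**Figure D2:**
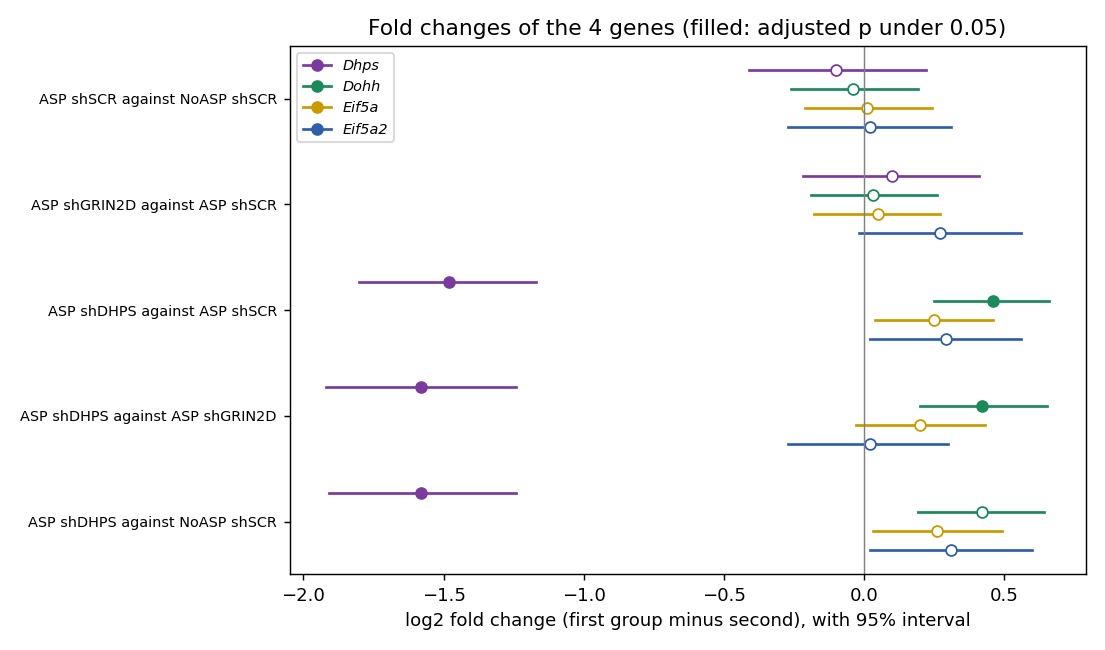
Log2 fold changes (horizontal axis, first group minus second) of the 4 genes with 95% intervals in 5 comparisons, filled where the adjusted p was under 0.05. *Dohh* lies at 0.42 to 0.46 in the 3 comparisons of ASP shDHPS and at -0.04 to 0.03 in the other 2.

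Some markers of the epithelial cells moved with the knockdowns as well. *Cdh1* stayed near its ASP shSCR level, with 0.04 (SE 0.09, adjusted p = 0.873) in ASP shDHPS and -0.06 (SE 0.10, adjusted p = 0.88) in ASP shGRIN2D. The sum of all 6 markers was 4928 to 5075 CPM in ASP shSCR, 4839 to 5063 in NoASP shSCR, 3642 to 3939 in ASP shGRIN2D and 3744 to 4391 in ASP shDHPS. Against ASP shSCR, *Epcam* (-0.52, adjusted p = 0.000779), *Krt7* (-0.57, adjusted p = 0.000313) and *Krt19* (-0.88, adjusted p = 7.72e-05) were called lower of the 6 in ASP shDHPS, and *Krt7* (-0.64, adjusted p = 0.000297) and *Krt18* (-0.46, adjusted p = 0.0190) in ASP shGRIN2D, the latter not when any of its 3 libraries was left out. All spheroids were grown from the same mammary cancer cell line, so these markers do not measure a share of epithelial cells among other cell types. Whether the marker differences bear on the *Dohh* difference was not tested. In bulk RNA, fewer cells with high marker levels and less marker RNA per cell cannot be told apart.

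A predicted gene, *Gm48551*, overlaps *Dohh* on the same strand, and 47.5% of the 31-base words of *Dohh* transcripts also occur in it. It received 7 to 29 counts per library against 520 to 1246 for *Dohh*. Its own mean was 1.47 CPM in ASP shDHPS and 0.691 in ASP shSCR, a difference of 1.17 (SE 0.43, adjusted p = 0.139) that was called without ASP shSCR replicate 4 (1.87, adjusted p = 0.0141). With both summed, the difference between ASP shDHPS and ASP shSCR was 0.47 (adjusted p = 0.00830). *Fzr1*, the nearest gene at lower coordinates, differed by -0.09 (SE 0.09, adjusted p = 0.596).

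Aspartate and silencing of *Grin2d*, a subunit of the NMDA receptor, were among the conditions in which the study examined *Dohh*. By quantitative PCR of spheroids, it reported a rise of *Dohh* mRNA with aspartate, which was lost when *Grin2d* was silenced. It also reported more *Dohh* by single-cell RNA sequencing in cancer cells of lung metastases from mice given tumor-secreted factors. Its further evidence was Dohh protein staining in metastases of aspartate-treated mice, and less *Dohh* mRNA with an inhibitor of the transcription factor CREB. The values below are from bulk RNA sequencing of spheroids, a different assay. Mean *Dohh* was 43.6 ± 5.78 CPM (SD, n = 4) in ASP shSCR, 44.9 ± 3.85 (n = 3) in NoASP shSCR and 44.6 ± 2.62 (n = 3) in ASP shGRIN2D, and the values of all 3 groups overlapped. With aspartate the difference was -0.04 (SE 0.11, adjusted p = 1), with a 95% interval of 0.833 to 1.14-fold in the fit by group. It was -0.09 with the replicate block over all libraries, -0.10 with the block in a fit of both groups alone, and 0.03 without ASP shSCR replicate 2. In the fit by group no gene was called (0% by edgeR, with 424 at an unadjusted p under 0.05, and 0 by DESeq2). Same-numbered libraries of these 2 groups deviated together, and with the block 2 genes were called over all libraries and 64 in the fit of both groups alone, none of them a member. In ASP shGRIN2D against ASP shSCR, *Dohh* differed by 0.03 (SE 0.11, 0.875 to 1.20-fold, adjusted p = 0.971), where 1.16% of genes were called. Against NoASP shSCR it differed by -0.01 (SE 0.12, adjusted p = 1), where 0.681% of genes were called.

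The hairpin target itself bears on the last values. The study reported a check of this knockdown in spheroids by quantitative PCR, and less labelled aspartate on the cell surface after silencing. In the present libraries *Grin2d* had few counts, so a missing call does not show that the knockdown failed. *Grin2d* was at 2.06 to 3.13 CPM (37 to 47 counts) in ASP shGRIN2D, 3.23 to 4.16 CPM in ASP shSCR and 3.05 to 6.95 in NoASP shSCR. The ranges did not overlap with ASP shSCR and overlapped with NoASP shSCR. The difference of -0.55 from ASP shSCR (SE 0.28, 0.455 to 1.02-fold, adjusted p = 0.516) did not pass the test under any alternative. That of -1.02 from NoASP shSCR (SE 0.29, adjusted p = 0.142) passed only without NoASP shSCR replicate 2 (-1.27, adjusted p = 0.0440) or without both shSCR libraries numbered 2 (-1.28, adjusted p = 0.0238). *Creb1*, for the cAMP-responsive transcription factor CREB, had 84.8 ± 2.61 CPM (n = 3) in ASP shGRIN2D and 84.2 ± 4.91 (n = 4) in ASP shSCR. It had 85.6 ± 7.95 (n = 3) in NoASP shSCR and 76.4 ± 13.9 (n = 4) in ASP shDHPS, and was called in no comparison in the fit by group. With the block in a fit of ASP shDHPS and NoASP shSCR alone it was -0.29 (adjusted p = 0.00274). CREB is regulated by phosphorylation, which mRNA does not show.

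Because CREB was examined upstream of *Dohh*, the RefSeq promoter windows (GRCm38.p6, 250 bases before to 50 after the start) were searched on both strands for its palindromic site TGACGTCA and for TGACG, the core within it. Neither occurred in the window of *Dohh* or of *Dhps*, at a background of 1.79% and 20.8% of 32851 windows. Of 6 windows for *Eif5a*, 3 held TGACG, and none of the 4 genes had the full palindrome. The window of *Eif5a2* held 1 match to TGACG, in capitals in this stretch (chr3:28781134-28781198, plus strand).
Eif5a2: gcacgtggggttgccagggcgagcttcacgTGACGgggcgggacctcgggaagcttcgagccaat
The 250 bases before the annotated start of *Dohh* (chr10:81384184-81384433, plus strand), the gene that differed, are these.
Dohh: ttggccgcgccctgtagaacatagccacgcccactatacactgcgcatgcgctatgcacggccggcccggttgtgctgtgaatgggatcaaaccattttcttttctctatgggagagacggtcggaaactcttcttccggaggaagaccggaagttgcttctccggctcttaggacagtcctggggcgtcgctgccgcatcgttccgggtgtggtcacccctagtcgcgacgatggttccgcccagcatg
No match says only that these letters are not in this window.

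*Eif5a* (ENSMUSG00000078812, chromosome 11) had 1271, 937, 1257 and 1245 CPM in ASP shSCR. In ASP shDHPS it had 1506, 1363, 1434 and 1287 CPM, all above the highest ASP shSCR library. The difference of 0.25 (SE 0.10, 95% interval 0.04 to 0.46) did not pass the adjustment over all genes (adjusted p = 0.183, edgeR). Without the 2 shSCR libraries numbered 2 it was 0.16 (adjusted p = 0.403). Against NoASP shSCR it was 0.26 (SE 0.11, adjusted p = 0.240), and it was called with the replicate block in a fit of only these groups (0.23, adjusted p = 0.000198), though not with the block over all libraries. Mean *Eif5a* was 1166 ± 169 CPM (n = 3) in NoASP shSCR and 1216 ± 26.5 (n = 3) in ASP shGRIN2D. Differences were 0.01 with aspartate (SE 0.11, 0.862 to 1.18-fold) and 0.05 with the *Grin2d* hairpin (SE 0.11, 0.881 to 1.21-fold). *Eif5al3-ps*, a pseudogene copy, received 2 to 13 counts and changed none of these values when added. *Gps2*, which lies 122 bases away, differed by -0.15 in ASP shDHPS (SE 0.09, adjusted p = 0.392).

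The paralog *Eif5a2* (ENSMUSG00000050192, chromosome 3) had 13.4, 11.3, 13.2 and 13.5 CPM in ASP shSCR and 13.3, 10.7 and 14.1 in NoASP shSCR. The levels were 14.3, 18.3 and 14.1 CPM in ASP shGRIN2D and 17.0, 16.0, 13.2 and 16.7 in ASP shDHPS. Both knockdowns had higher means than ASP shSCR, without overlap for ASP shGRIN2D and with it for ASP shDHPS. Neither difference passed the test, with 0.27 for ASP shGRIN2D (SE 0.14, adjusted p = 0.516) and 0.29 for ASP shDHPS (SE 0.13, adjusted p = 0.222). The 2 knockdowns differed from each other by 0.02 (SE 0.14, 0.828 to 1.23-fold). With aspartate the difference was 0.02 (SE 0.14, adjusted p = 1). *Rpl22l1*, the next gene, differed by -0.05 in ASP shDHPS (SE 0.17, adjusted p = 0.915).

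Ratios within a library do not depend on scaling. The count of *Dohh* was 1.66 to 2.63 times that of *Dhps* in ASP shSCR, 1.98 to 2.27 in NoASP shSCR and 1.88 to 2.32 in ASP shGRIN2D. In ASP shDHPS it was 6.06 to 11.8 times, above every other library. The ASP shDHPS libraries with least *Dhps* by CPM, replicates 1 and 2, also held most *Dohh*. For *Dohh*, however, replicates 2 and 3 were nearly level (59.9 and 59.0 CPM), and no relation was tested. Mean log2 ratios differed by 1.98 between ASP shDHPS (3.14 ± 0.45, SD) and ASP shSCR (1.16 ± 0.29). *Dhps*, the denominator, is the hairpin target and alone fell by 1.48, so this shift mostly restates the knockdown and is given as a description. The ratio of *Eif5a2* to *Eif5a* was 0.0110 in ASP shSCR, 0.0109 in NoASP shSCR, 0.0127 in ASP shGRIN2D and 0.0112 in ASP shDHPS (geometric means). The shift in the share of the paralogs with the *Dhps* hairpin was 0.03 on the log2 scale (exact two-sided permutation p = 0.771, adjusted over 6 ratio tests 0.857, in a design that could give no adjusted p under 0.05).

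**Figure D3:**
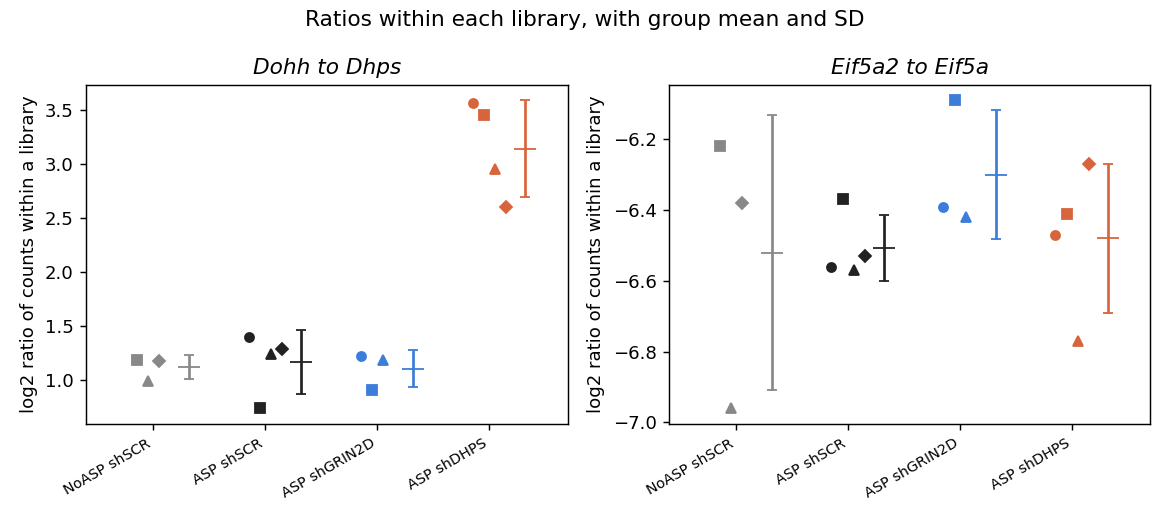
Log2 ratios of counts within each library (vertical axes) in the 4 groups, for *Dohh* to *Dhps* and *Eif5a2* to *Eif5a*, with bars for mean and SD. The first ratio averages 3.14 in ASP shDHPS and 1.16 in ASP shSCR without overlap, while the second overlaps between all groups.

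Spermidine is the substrate of *Dhps*, so the genes that make, break and regulate polyamines were described as a list of 14, of which 10 reached a mean CPM of 5. *Odc1*, ornithine decarboxylase, the rate-limiting enzyme of polyamine synthesis, had 687 to 936 CPM (788 ± 110, SD, n = 4) in ASP shDHPS and 444 to 563 (513 ± 52.1, n = 4) in ASP shSCR. It rose by 0.62 (SE 0.10, 1.54-fold, adjusted p = 0.00111, edgeR) and was called under all 17 alternatives (0.53 to 0.68). *Paox*, an oxidase that returns acetylated polyamines to spermidine and putrescine, fell by 0.64 (SE 0.13, adjusted p = 0.00813), from 18.5 to 30.8 CPM in ASP shSCR to 13.4 to 17.0 in ASP shDHPS, and was also called under all 17. By edgeR these were the only 2 of 14 called, 1 in each direction, beside 4.22% of all genes, and the list median was 0.16, beside 0.005 over all genes. The number was 5 with DESeq2, where 1398 genes were called, and 4 without ASP shSCR replicate 1. *Azin1*, which spares ornithine decarboxylase from degradation (0.40, SE 0.12, adjusted p = 0.0512), and *Amd1*, which makes the aminopropyl donor (0.43, SE 0.13, adjusted p = 0.0715), did not pass in the fit by group but did with DESeq2 (adjusted p = 0.0205 and 0.0356). The same held for *Sat1* (0.33, SE 0.10, adjusted p = 0.0774, and 0.0324 with DESeq2). *Oaz1* (0.30, SE 0.10, adjusted p = 0.109) passed with neither, but did with the replicate block over all libraries (0.29, adjusted p = 0.0079). Of the 14 differences, 8 were above 0.

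Against ASP shGRIN2D, *Odc1* (0.54, adjusted p = 0.00671) and *Azin1* (0.61, adjusted p = 0.00800) were called higher in ASP shDHPS, 2 of 14 beside 2.82% of all genes. Without ASP shGRIN2D replicate 3 they were not (adjusted p = 0.0632 and 0.0780). Against NoASP shSCR 1 gene of the list was called, *Odc1* (0.66, adjusted p = 0.00257), beside 1.81% of all genes. With the replicate block over all libraries 4 were called, where 1036 genes of 19525 were, and 4 with DESeq2, where 909 were. With the block in a fit of both groups alone, more of all genes were called. There *Odc1*, *Azin1*, *Oaz1*, *Amd1*, *Srm* and *Sat1* were called higher and *Paox* lower. By edgeR no gene of the list was called with aspartate, where the median was 0.08 beside 0.001 over all genes, or with the *Grin2d* hairpin against ASP shSCR, where it was -0.01. The 2 abundant members with the largest differences in the latter were *Paox* (-0.51, SE 0.15, adjusted p = 0.115, but 0.0437 with DESeq2) and *Amd1* (0.24, SE 0.14, adjusted p = 0.590).

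**Figure D4:**
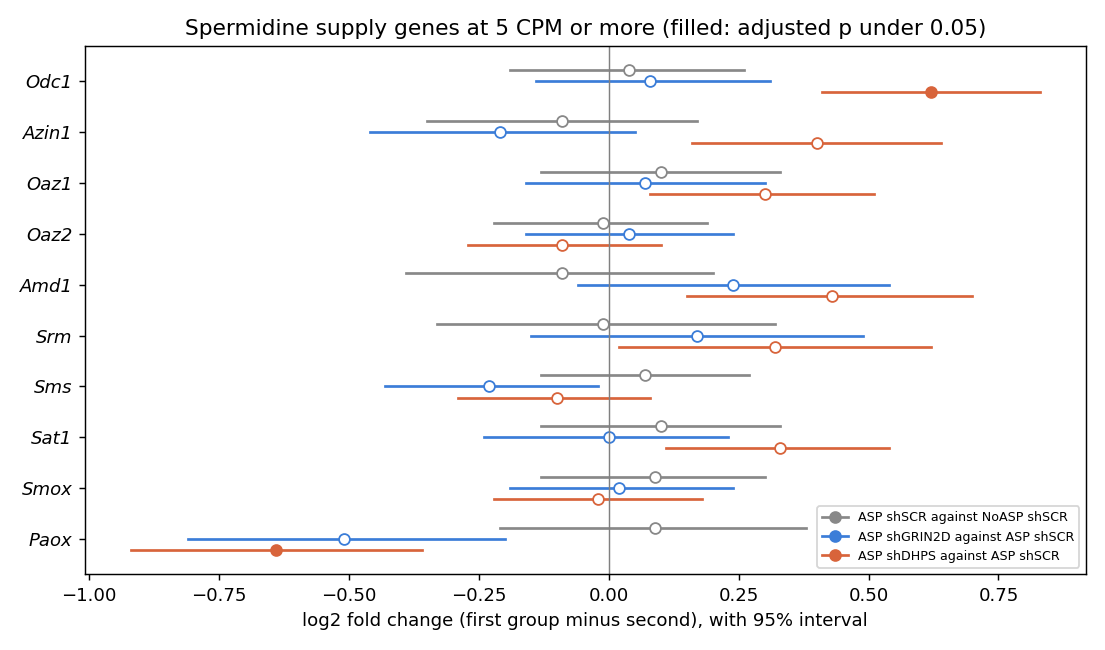
Log2 fold changes (horizontal axis, first group minus second) with 95% intervals for the 10 polyamine genes that reached a mean CPM of 5, in 3 comparisons, filled where the adjusted p was under 0.05. Only *Odc1* (0.62) and *Paox* (-0.64) are filled, both in ASP shDHPS against ASP shSCR.

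Genes that act on eIF5A protein or beside it in translation gave no calls in the fit by group, where 0% to 4.22% of all genes were called, and these counts of 0 are near that background. For its nuclear export and acetylation 4 genes were described. The largest differences in ASP shDHPS against ASP shSCR were -0.24 for *Hdac6*, a deacetylase (SE 0.10, adjusted p = 0.176), and -0.17 for *Kat2b*, an acetyltransferase (SE 0.10, adjusted p = 0.376), with a list median of -0.15. *Xpo4*, the exportin of eIF5A, was at 67.1 ± 3.08 CPM (n = 3) in ASP shGRIN2D and 56.8 ± 5.69 (n = 4) in ASP shSCR (0.24, SE 0.12, adjusted p = 0.505). Among 8 elongation and termination factors the largest differences in ASP shDHPS against ASP shSCR were 0.26 for *Abce1*, the ribosome recycling ATPase (SE 0.12, adjusted p = 0.242), and 0.23 for *Etf1*, the release factor (SE 0.10, adjusted p = 0.195), with a list median of 0.11. With the block in a fit of ASP shDHPS and NoASP shSCR alone, *Xpo4* (-0.26, adjusted p = 0.0176) and *Etf1* (0.19, adjusted p = 0.0284) were called, where 2352 genes were.

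The genes whose log2 CPM was most like each member over the 14 libraries are given as a description, among 9805 genes. Groups contribute to these correlations, so the value on deviations from group means follows each. For *Dohh* they were *Tspan2* (r = 0.965, within groups 0.861), *Nceh1* (0.962, 0.863) and *Cyb5r1* (0.961, 0.867). *Tspan2*, a tetraspanin, had 65.6 to 79.0 CPM in ASP shDHPS and 39.6 to 51.7 in ASP shSCR. For *Eif5a* they were *Nhp2*, a snoRNP protein (0.975, 0.968), *Gps1* (0.975, 0.964) and *Rsl24d1*, a ribosome assembly factor (0.971, 0.957). *Nhp2* had 80.2 to 121 CPM in ASP shSCR and 125 to 146 in ASP shDHPS. For *Dhps* they were *Pla2g7* (0.917, 0.636), *Ttf1* (0.916, 0.610) and *Sestd1* (0.915, 0.179), with lower values within groups. For *Eif5a2* they were *Btbd10* (0.868, 0.821), *Rnf139* (0.862, 0.716) and *Thap12* (0.857, 0.885). The libraries share medium and scaling, and these values carry no test.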

How the data were processed

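Polyadenylated RNA of the cytosolic lysate (the input of polysome profiling) was sequenced from 14 spheroid pellets with a stranded kit. The authors trimmed reads with Trim Galore 0.6.6, checked them with FastQC 0.11.9, mapped them to GRCm39 with STAR 2.6.1 and deposited gene counts estimated with Salmon 1.4.0 and rounded, expected counts that are not normalized. Salmon divides reads of overlapping or copied genes by estimation. The authors' DESeq2 1.34.0 table (log2 fold changes and p-values) and gene set scores of ASP shSCR against NoASP shSCR were not used.

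Groups and replicate numbers came from the labels. Nothing in them says what a number stands for. The 19525 genes were fitted with edgeR 4.0.16 (R 4.3.3, TMM, quasi-likelihood, group as the only term, all 14 libraries), the Benjamini-Hochberg adjustment ran over all genes, and intervals are 95% from the coefficient. Log2 CPM used a prior count of 2. Ratios were tested with exact permutation (SciPy 1.17.1). The deviations of same-numbered libraries from group means correlated above 0.1 in all 3 pairs for ASP shSCR with NoASP shSCR (0.514, 0.287, 0.203) and ASP shDHPS with NoASP shSCR (0.205, 0.307, 0.373), which were taken as paired. ASP shGRIN2D and NoASP shSCR shared only 2 numbers, also above 0.1 (0.123, 0.164), and their main values are from the fit by group.

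Named genes were the 4 members, each list gene called in a comparison or among the 2 with the largest differences at a mean of at least 5 CPM, adjacent or overlapping genes, and the 3 most correlated genes per member. Members, lists and tests were chosen with earlier results of these data known. Alternatives were DESeq2 1.42.0, RLE or plain library size, filterByExpr (13421 genes), a robust prior, fits of 2 groups, the replicate block, leaving out each library, and, for ratios, 0.5 added to counts. Chosen after seeing the data were leaving out both shSCR libraries numbered 2, transcript length and the sum of *Dohh* with *Gm48551*. Transcripts and neighbours are from GENCODE M21 (GRCm38) and promoters from RefSeq (GRCm38.p6), not the build of the counts. The coding sequences were aligned with Biopython 1.88.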

Additional observations from a re-analysis of the deposited data

Results flagged for a closer look

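In ASP shSCR, *Eif5a* was 937 CPM in replicate 2, far below the next lowest library at 1245, a gap of 0.925 of the range of the group. In the same group *Eif5a2* was 11.3 CPM in replicate 2, with the next at 13.2, a gap of 0.873 of the range. Both are single libraries that stand apart from 3 others, and chance alone sets about 1 in 20 such groups apart. They come from the same library, which also lay at the end of the first principal component.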

How the results depend on the processing

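The fall of *Dhps* in ASP shDHPS was called under every alternative in all 3 comparisons, and the rise of *Dohh* against ASP shSCR under all 18. In the same comparison *Odc1* and *Paox* were called under all 17. The values below depended on the choices named, and the cause was not tested. Of 543 alternative values for the members' folds, ratios and numbers of called genes, 442 kept their direction, their side of the threshold and, for counts, a size within 1.5 times.

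*Dohh* in ASP shDHPS against NoASP shSCR (0.42, not called) was called with DESeq2 (0.41, adjusted p = 0.00821), filterByExpr (0.42, adjusted p = 0.0430), a robust prior (0.42, adjusted p = 0.0415), the replicate block over all libraries (0.37, adjusted p = 0.0187) or over both groups alone (0.37, adjusted p = 0.000282), and summed with *Gm48551* (0.43, adjusted p = 0.0420). Leaving out each library in turn gave 0.35 to 0.46, called without NoASP shSCR replicate 3 or ASP shDHPS replicate 4. Against ASP shGRIN2D the leave-one-out range was 0.38 to 0.47. The block called *Eif5a* in the 2-group fit of ASP shDHPS against NoASP shSCR (0.23, adjusted p = 0.000198). In ASP shDHPS against ASP shSCR, where 3 of 4 numbers correlated above 0.1 (0.258, 0.195 and 0.201, and 0.0404 for number 4), it called *Eif5a* over all libraries (0.25, adjusted p = 0.0319) and in the 2-group fit (0.26, adjusted p = 0.0399), and 5 of 8 libraries correlated best with their own number. By this measure ASP shGRIN2D libraries were not paired with those of ASP shSCR (r = -0.117 to 0.042, 1 of 6 best with its own number) or of ASP shDHPS (0.00533 to 0.231, 2 of 6). With NoASP shSCR they shared only 2 numbers, which correlated above 0.1 (r = 0.123 and 0.164, 4 of 4 best with their own number). The block changed no other call of a member.

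Differences near 0 changed sign and stayed uncalled. With aspartate, the block gave *Eif5a* -0.01 over all libraries and -0.02 in the 2-group fit and the *Dohh* to *Dhps* ratio -0.03, and leaving out libraries gave -0.20 to 0.01 for *Dhps*, -0.11 to 0.03 for *Dohh*, -0.09 to 0.12 for *Eif5a*, -0.09 to 0.10 for *Eif5a2*, -0.03 to 0.19 for the *Dohh* to *Dhps* ratio and -0.21 to 0.16 for the *Eif5a2* to *Eif5a* ratio. In ASP shGRIN2D against ASP shSCR, omitting both shSCR libraries numbered 2 gave -0.04 for *Dohh* and -0.05 for *Eif5a*, and leaving out single libraries gave -0.04 to 0.10, -0.05 to 0.08 and, for the *Dohh* to *Dhps* ratio, -0.20 to 0.04. In ASP shGRIN2D against NoASP shSCR, *Dhps* was 0.00 with DESeq2, RLE factors and filterByExpr, 0.07 and 0.02 with the block, and -0.10 to 0.11 without single libraries, *Dohh* -0.08 to 0.03, and *Eif5a* -0.04 to 0.16 and -0.05 without both libraries numbered 2. *Eif5a2* between the knockdowns was -0.02 and -0.01 with the block and -0.05 to 0.15 without single libraries. The *Eif5a2* to *Eif5a* ratio in ASP shDHPS against ASP shSCR was -0.04 to 0.13.

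The number of genes called, the background of each count, moved more. With aspartate it was 2 with the block, 64 with it in the 2-group fit and 0 to 1 without single libraries. For ASP shGRIN2D against ASP shSCR (226) it was 440 with DESeq2, 374 with only both groups, 611 and 363 with the block, and 86 to 208 without single libraries. For ASP shDHPS against ASP shSCR (824) it was 1398 with DESeq2, 2150 and 2026 with the block, and 412 (without ASP shSCR replicate 2) to 894. Between the knockdowns (550) it was 920, 1468 and 1527, and 209 (without ASP shGRIN2D replicate 1) to 577. For ASP shGRIN2D against NoASP shSCR (133) it was 327 with DESeq2, 246 with only both groups, 338 with the block and 56 to 121. For ASP shDHPS against NoASP shSCR (354) it was 909 with DESeq2, 177 with only both groups, 1036 and 2352 with the block, 150 without both libraries numbered 2, and 69 (without NoASP shSCR replicate 2) to 686. Polyamine genes called in ASP shDHPS against ASP shSCR numbered 5 of 14 with DESeq2 and 7 with the block, in place of 2. *Paox* was called in ASP shGRIN2D against ASP shSCR with the block (-0.54, adjusted p = 0.00784). With the block in a 2-group fit, *Xpo4* was called in ASP shDHPS against ASP shGRIN2D (-0.43, adjusted p = 0.00756) and *Abce1* against ASP shSCR (0.27, adjusted p = 0.0412), both also over all libraries, and so was *Gm48551* against ASP shSCR (1.29, adjusted p = 0.0135).

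*Dhps* in ASP shDHPS rested on 82 to 170 counts and *Eif5a2* on 172 to 324 in all libraries, which limits their precision.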
